A study of Homo sapiens with 12 samples.

Results

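The comparison described here is that of Caco-2 cells transfected with ZNF658 siRNA 1 against Caco-2 cells transfected with control siRNA 1, both supplied by Ambion. It takes 6 of the 12 arrays of the series, chosen by the siRNA named in the sample labels: 3 arrays of ZNF658 siRNA 1 and 3 arrays of control siRNA 1. Caco-2 is a line derived from a human colon adenocarcinoma that can differentiate into enterocyte-like cells, and both groups were transfected with the same lipid reagent without a label of added zinc. The other 6 arrays carry a second ZNF658 siRNA and a second control siRNA of another supplier. Setting ZNF658 siRNA 1 against that second control thus also compares suppliers and array sets, and these cannot be told apart. Total RNA was hybridised to Illumina HT12 bead chips, and values are normalised intensities on the log2 scale, so that a difference of 1 log2 unit is a 2-fold change. The labels number the replicates but do not say whether they were separate cultures, so P values measure the spread between these arrays. With 1 siRNA in the comparison, an effect of the loss of ZNF658 and any other effect of that siRNA cannot be told apart.

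ZNF658 is a zinc finger protein with a KRAB domain, a domain that typically recruits silencing complexes to DNA. The study asked which transcripts change when ZNF658 is reduced, having found the protein at the zinc transcriptional regulatory element (ZTRE), a palindromic promoter element through which zinc represses its target genes. Other pathways that matter for an siRNA experiment respond to RNA itself. Double-stranded RNA in the cytoplasm is sensed by RIG-I (RIGI) and MDA5 (IFIH1), which signal to interferon regulatory factors. These induce interferons and a set of interferon-stimulated genes whose products, such as the IFIT proteins, bind foreign RNA and limit its translation.

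The chip has 47231 probes, of which 14454 to 16167 per array were detected, that is, had a detection P value under 0.01. Tests covered the 14295 probes detected on all 3 arrays of at least 1 group, 11495 of them named, for 8947 genes. No probe carried the name ZNF658 (0 probes), so the knockdown itself was not measured on these arrays. Of 12 markers listed for Caco-2 cells, 8 had a named probe, and 7 of those (CDH1, EPCAM, KRT8, KRT18, KRT19, CDX2 and CDH17) were detected on all 6 arrays, while GPA33 was detected on none. Of 18 markers of other cells (leukocytes, endothelium, fibroblasts and liver), 9 had a probe, and CD14, CD68, COL1A1, COL1A2, ALB and AHSG were detected on all 6 arrays. Of 38 trophoblast genes, 24 were tested, among them CGA, the common subunit of glycoprotein hormones, at 10.95 to 12.03 log2 units over the 6 arrays, and ERVW-1, the envelope protein syncytin-1, at 9.35 to 9.84. Of 42 enterocyte genes, 8 were tested. The origin of the trophoblast signal in cells labelled Caco-2 was not tested.

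The 6 arrays did not sort cleanly by siRNA. Replicate 3 of ZNF658 siRNA 1 correlated best with replicate 1 of control siRNA 1 (r = 0.991 across tested probes, which are not independent) against r of 0.979 to 0.981 with the other ZNF658 siRNA 1 arrays. For replicate 1 of control siRNA 1, r with the other control arrays was likewise lower, at 0.983 to 0.985. The other 4 arrays were closest to the second array of their own group, at 0.989 for replicates 1 and 2 of ZNF658 siRNA 1 and 0.991 for replicates 2 and 3 of control siRNA 1. Between the close pair, a 2-fold difference or more was seen for 49 probes upwards and 38 downwards in the ZNF658 siRNA 1 array. Between replicate 1 of ZNF658 siRNA 1 and replicate 3 of control siRNA 1, 323 were higher and 218 lower. Within groups, 54 to 292 probes were at least 2-fold apart. The genes described in most detail below are therefore given by array. Both arrays of the close pair were kept in the groups their labels name, and whether those labels are right was not tested.

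**Figure D1:**
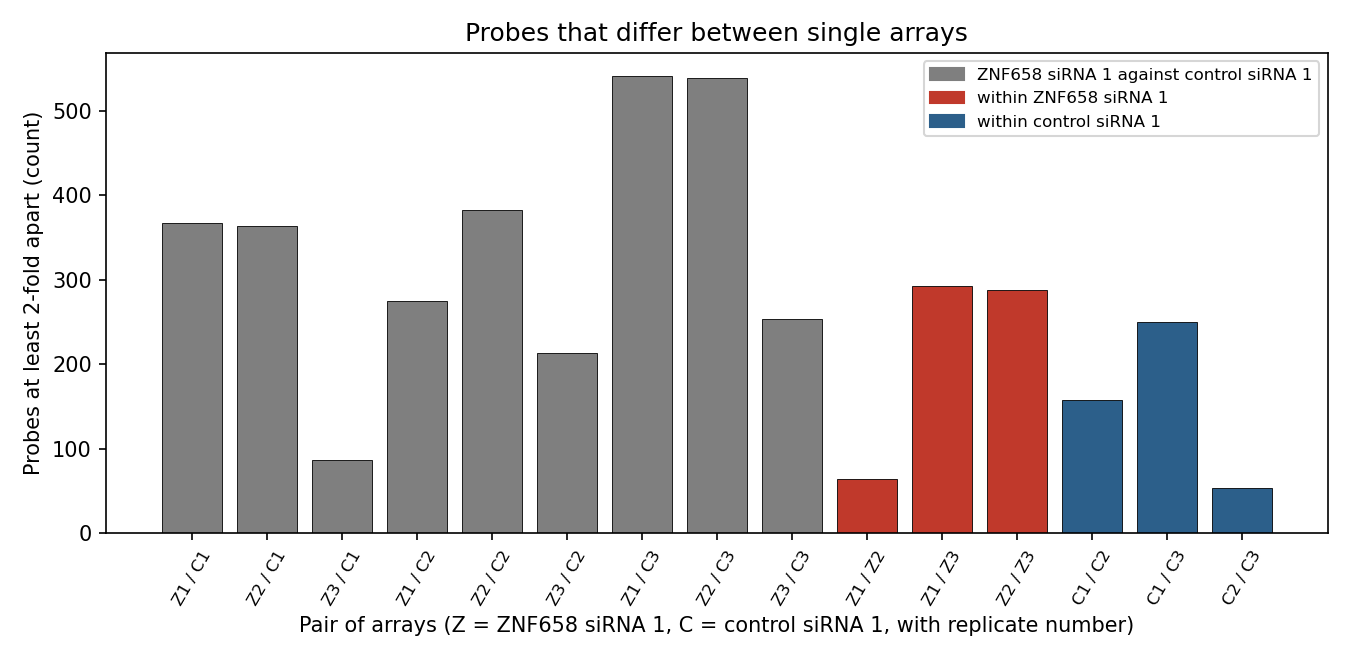
Number of probes at least 2-fold apart (y axis, count of 14295 tested probes) between each pair of single arrays (x axis); grey bars are pairs of ZNF658 siRNA 1 against control siRNA 1, red bars pairs within ZNF658 siRNA 1 and blue bars pairs within control siRNA 1. The shortest grey bar is replicate 3 of ZNF658 siRNA 1 against replicate 1 of control siRNA 1, and it is below the red bars of 292 and 288 probes.

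The probes that rose belong to genes of antiviral defence: IFIT2, IFIT1 and CCL5. By limma, taking an adjusted P value under 0.05 together with a 1.2-fold minimum as the criteria for a call, 3 probes of 14295 were called higher with ZNF658 siRNA 1 (0.021%). None was called lower (0%), where the lowest adjusted P value was 0.2524. At an unadjusted P value under 0.05, 1019 probes were higher and 904 lower, and the rank product test that the study's methods name called 31 higher and 30 lower. The count depends on single arrays. Without replicate 3 of ZNF658 siRNA 1, limma called 518 probes higher and 297 lower. Without replicate 1 of control siRNA 1 it called 30 higher and 67 lower, and without replicate 2 of ZNF658 siRNA 1 it called 1 higher and 0 lower. Since few probes passed, groups of genes are described below by how many members were separated, meaning that all 3 ZNF658 siRNA 1 arrays lay above (or below) all 3 control arrays with a change of at least 1.2-fold. Over all probes this held for 925 in the higher direction (6.47%) and 934 in the lower direction (6.53%). Over genes, each represented by its brightest probe, it held for 528 (5.9%) higher and 508 (5.68%) lower. The median of all probes was −0.011 log2 units here and 0.186 under median scaling. Less the median of all genes, the list medians given below kept their sign under the other scalings, except those of ribosome biogenesis (−0.001 here, 0.02 under median scaling) and Wnt targets (0.006 here, −0.008 under median scaling).

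The promoters of the interferon-stimulated genes are shown because the genes that rose belong to this group. An interferon-stimulated response element was searched as its core GAAANNGAAA on either strand, which reads TTTCNNTTTC when it lies on the other strand, in the RefSeq promoter windows (GRCh38.p14) of 250 bases before to 50 bases after each start site. It was in 4.38% of all 27305 genes with a window and in 3.45% of the 7300 tested genes with one. The core was in 20 of 421 windows of genes separated in the higher direction (4.75%) and in 11 of 403 of those separated in the lower (2.73%). Of 33 interferon-stimulated genes measured, 28 had a window and 18 of these (64.3%) held the core. For the separated members IFIT2, CCL5, GBP2 and XAF1, no match before the start site was found or no window was at hand. The stretches of the 3 separated members with a match there follow, with capitals marking each match to the core. A match describes the letters only.
IFIT1, chr10:89392492-89392531, plus strand: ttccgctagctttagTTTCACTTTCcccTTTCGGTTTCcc
IFIH1, chr2:162318819-162318858, minus strand: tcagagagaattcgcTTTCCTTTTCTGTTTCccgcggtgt
ISG20, chr15:88638932-88638971, plus strand: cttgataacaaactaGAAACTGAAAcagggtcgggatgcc

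IFIT2, an interferon-induced protein with tetratricopeptide repeats that binds foreign RNA, had values of 7.61, 7.33 and 7.22 with ZNF658 siRNA 1 and 5.16, 5.08 and 5.25 with control siRNA 1 (replicates 1, 2 and 3). The groups were far apart, and the probe was not detected on any control array. The difference was 2.22 log2 units (SE 0.21, limma adjusted P = 0.001124), and because the control values are only a bound, it was at least 3.17-fold higher. IFIT1, which recognises the 5′ end of viral RNA, had values of 7.34, 7.57 and 7.05 with ZNF658 siRNA 1, against 5.29, 5.43 and 4.99 with control siRNA 1. It too was not detected on any control array, and was at least 3.03-fold higher (2.09 log2 units, SE 0.22, limma adjusted P = 0.002958). The call of IFIT1 was lost without replicate 2 of ZNF658 siRNA 1 (adjusted P = 0.0663), against all 6 control arrays (1.65 log2 units, 0.2842) and against control siRNA 2 (1.21, 0.06978).

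CCL5, a chemokine that attracts T cells and is a target of interferon regulatory factors, had values of 8.38, 8.58 and 9.06 with ZNF658 siRNA 1, against 7.38, 7.09 and 6.88 with control siRNA 1, a difference of 1.56 log2 units (SE 0.20, limma adjusted P = 0.01539). A second CCL5 probe had 6.59, 6.56 and 6.49 with ZNF658 siRNA 1 and 4.99, 5.28 and 4.95 with control siRNA 1, where it was not detected. It was at least 1.77-fold higher (1.47 log2 units) and did not pass (SE 0.22, limma adjusted P = 0.0617). For both CCL5 probes the groups were separated. The call of the first was lost without replicate 2 of ZNF658 siRNA 1 (adjusted P = 0.1026), without replicate 2 of control siRNA 1 (0.123) and without replicate 3 of control siRNA 1 (0.09879), and also in a fit of all 12 arrays (0.1524) and in eBayes without a trend (0.05934).

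IFIH1, the MDA5 sensor of long double-stranded RNA, had values of 7.29, 7.47 and 7.26 with ZNF658 siRNA 1, against 6.50, 5.92 and 6.16 with control siRNA 1. The groups did not overlap, but the difference of 1.15 log2 units did not pass the test (SE 0.20, limma adjusted P = 0.215). ISG20, an exonuclease that degrades single-stranded RNA, had 7.56, 7.27 and 7.68 with ZNF658 siRNA 1, against 6.60, 6.50 and 6.66 with control siRNA 1 (0.92 log2 units, SE 0.18, limma adjusted P = 0.2524). In all of IFIT2, IFIT1, CCL5, IFIH1 and ISG20, replicate 3 of ZNF658 siRNA 1 lay above every control array, which follows from their being separated. Over all probes this array was closest to a control array. Without replicate 3 of ZNF658 siRNA 1, both IFIH1 (adjusted P = 0.01684) and ISG20 (0.03302) passed, and IFIH1 also without replicate 1 of control siRNA 1 (0.01132).

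Of 61 interferon-stimulated genes listed, 33 were measured, 3 of them called. In all, 22 were above and 11 below the control mean, and 7 were separated in the higher direction (21.2%, against 5.9% of all genes) and 0 in the lower, with a median of 0.157 log2 units against −0.013 over all genes. The median was 0.053 without replicate 3 of ZNF658 siRNA 1 and 0.11 without replicate 1 of control siRNA 1. The 7 are IFIT2, IFIT1, CCL5, IFIH1, ISG20, GBP2 and XAF1. IFIT2, IFIT1 and GBP2 were tested only because the ZNF658 siRNA 1 arrays detected them, so that they could count in the higher direction alone. Of the 26 members detected on all 6 arrays, 4 were separated in the higher direction (15.4%, against 5.49% of all genes detected on all 6 arrays) and 0 in the lower, with a median of 0.123. GBP2, a guanylate-binding protein of host defence, had 5.86, 5.89 and 6.10 with ZNF658 siRNA 1 and 5.31, 5.59 and 5.42 with control siRNA 1, where it was not detected. XAF1, a pro-apoptotic interferon target, had 8.29, 8.20 and 8.22 with ZNF658 siRNA 1 and 7.96, 7.88 and 8.03 with control siRNA 1. Neither passed (adjusted P = 0.3573 for GBP2 and 0.4131 for XAF1).

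Other members of the pathway were not separated by this criterion. The RNA sensor RIGI, whose arrays were separated by less than 1.2-fold, had 6.62, 6.51 and 6.64 with ZNF658 siRNA 1 and 6.42, 6.35 and 6.34 with control siRNA 1. ISG15, a ubiquitin-like modifier, had 10.19, 10.12 and 10.45 with ZNF658 siRNA 1 and 10.20, 9.90 and 9.68 with control siRNA 1, so that the groups overlapped. The double-stranded RNA-dependent kinase PKR (EIF2AK2) had 9.36, 9.33 and 9.40 with ZNF658 siRNA 1 and 9.41, 9.58 and 9.50 with control siRNA 1, a difference of −0.13 log2 units that became 0.095 under median scaling. OAS1, an activator of RNase L, and IFI6, an antiviral membrane protein, had differences of −0.41 and −0.26 log2 units, and in neither were the groups separated. Leaving out both arrays of the close pair, 12 of the 33 genes (36.4%) were separated in the higher direction and 3 (9.09%) in the lower, where 18% and 21% of all genes were. Thus the genes that differed most were a part of the pathway, and most of the measured members were not separated.

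**Figure D2:**
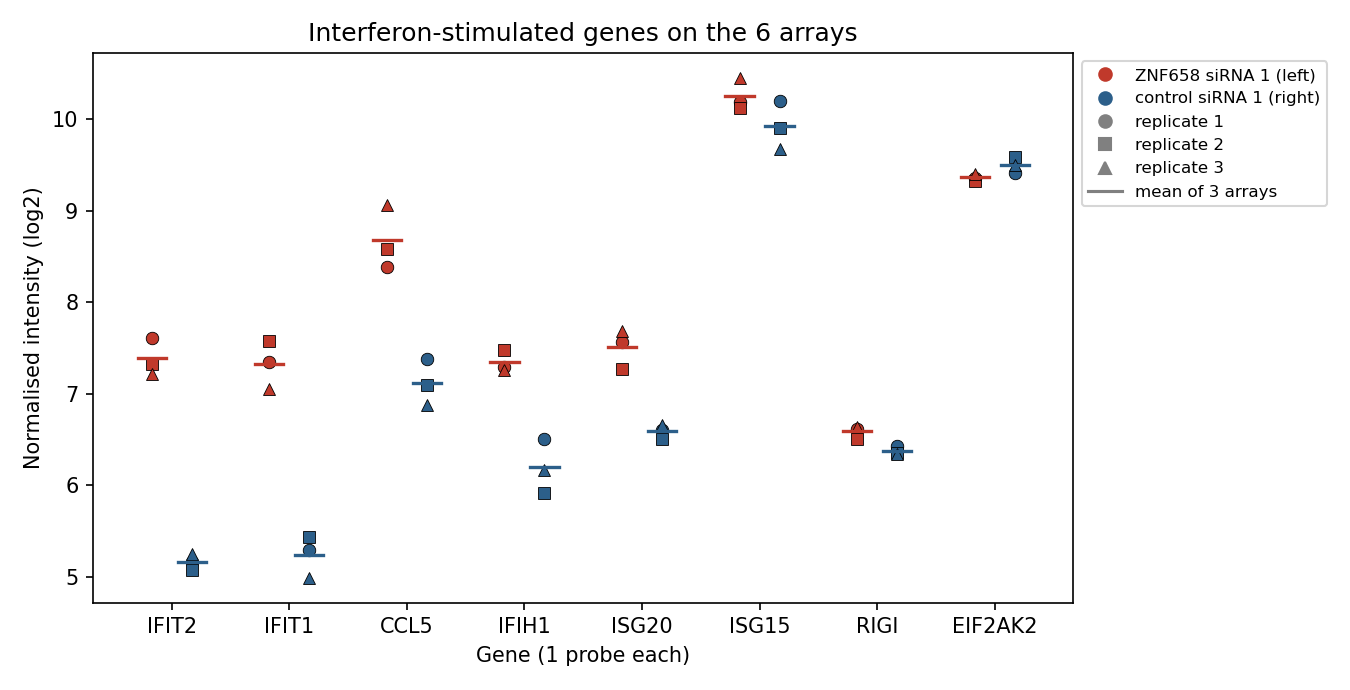
Normalised intensity (y axis, log2) of 8 interferon-stimulated genes (x axis) on the 3 ZNF658 siRNA 1 arrays (red, left of each pair) and the 3 control siRNA 1 arrays (blue, right); marker shapes are replicate numbers and lines are means of 3 arrays. IFIT2, IFIT1, CCL5, IFIH1 and ISG20 show no overlap, with gaps between the means of 0.92 for ISG20, 1.15 for IFIH1 and 1.56 for CCL5, IFIT2 and IFIT1 are undetected on the control arrays, so that their gaps stand for at least 3.17- and 3.03-fold, and ISG15 overlaps and EIF2AK2 differs by −0.13.

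Signalling and stress genes stood next to the interferon genes among the largest differences. JUN, a subunit of the AP-1 transcription factor, had values of 6.00, 6.10 and 6.04 with ZNF658 siRNA 1, against 5.29, 4.91 and 4.69 with control siRNA 1, where no array detected it, and was at least 1.25-fold higher (limma adjusted P = 0.2524). ANKRD1, a target of the Hippo pathway effector YAP, had 7.21, 7.53 and 7.26 with ZNF658 siRNA 1, against 6.42, 6.46 and 5.72 with control siRNA 1 (1.14 log2 units, SE 0.23). DUSP6 and SPRY2, feedback inhibitors of ERK signalling, differed by 0.60 log2 units each. In JUN, ANKRD1, DUSP6 and SPRY2 all 3 ZNF658 siRNA 1 arrays lay above all 3 control arrays. Of 18 measured genes of the EGFR ligand and immediate early list, 3 were separated in the higher direction (16.7%, against 5.9% of all genes). In the lower direction 1 was (5.56%, against 5.68%). JUN was tested only because the ZNF658 siRNA 1 arrays detected it, so it could count in the higher direction alone. Of the 17 members detected on all 6 arrays, 2 were separated higher (11.8%, against 5.49% of such genes) and 1 lower (5.88%, against 5.36%). Their median was 0.008.

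TXNIP, an inhibitor of thioredoxin and of glucose uptake, had values of 9.20, 9.38 and 9.83 with ZNF658 siRNA 1, against 8.54, 8.74 and 8.55 with control siRNA 1 (0.86 log2 units, SE 0.17, limma adjusted P = 0.2524). The direction of TXNIP was not the same against the arrays of control siRNA 2, of another supplier, where the difference was −0.05. CREBRF, a regulator of the response to unfolded proteins and nutrients, had 7.32, 7.48 and 6.42 with ZNF658 siRNA 1, against 5.39, 6.32 and 6.17 with control siRNA 1, and replicate 3 of ZNF658 siRNA 1 was thus 0.10 above the nearest control array. BCL6, a transcriptional repressor, differed by 0.35 log2 units (limma adjusted P = 0.3872), and by −0.37 against control siRNA 2. Of the 17 measured genes listed with TXNIP, 5 were separated in the higher direction (29.4%, against 5.9% of all genes). In the lower direction 1 was (5.88%, against 5.68%), and the median was 0.016. Of the 16 members detected on all 6 arrays, 4 were separated higher (25%, against 5.49% of such genes) and 1 lower (6.25%, against 5.36%).

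Of the remaining largest differences, ENPP5, a membrane nucleotide phosphodiesterase, had 6.65, 6.39 and 6.19 with ZNF658 siRNA 1 and 5.67, 4.94 and 5.44 with control siRNA 1, and was at least 1.61-fold higher, with no control array detecting it. AKAP2, an anchoring protein of protein kinase A, had 6.79, 5.69 and 6.38 with ZNF658 siRNA 1, against 5.10, 5.43 and 5.44 with control siRNA 1, and was also undetected on the control arrays. The kinase TLK1, which acts on histone chaperones, had 8.38, 8.63 and 7.76 with ZNF658 siRNA 1, against 7.42, 7.16 and 7.12 with control siRNA 1. The ribosome-associated chaperone DNAJC2 had 7.14, 7.37 and 6.20 with ZNF658 siRNA 1, against 5.76, 5.50 and 6.05 with control siRNA 1. In TLK1 and DNAJC2 replicate 3 of ZNF658 siRNA 1 was the lowest of its group and the nearest to the controls. The adjusted P value of ENPP5, TLK1 and DNAJC2 was 0.2524 in each case.

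The lowest value relative to control siRNA 1 was that of 18S rRNA. The 18S rRNA probe (RNA18SN5) had 9.58, 9.56 and 10.70 with ZNF658 siRNA 1, against 10.74, 14.55 and 14.74 with control siRNA 1. Replicates 2 and 3 of control siRNA 1 stood far above the other 4 arrays, and replicate 1 of control siRNA 1 lay 0.04 above replicate 3 of ZNF658 siRNA 1. The difference was −3.40 log2 units (SE 0.76) and did not pass by limma (adjusted P = 0.2524). Without replicate 1 of control siRNA 1 it was −4.70 (adjusted P = 2.584e-06), and without replicate 3 of ZNF658 siRNA 1 it was −3.77 (adjusted P = 0.02763). Without replicate 3 of control siRNA 1 it was −2.70 (adjusted P = 0.6882). By rank product, no permuted value was as extreme. Against control siRNA 2 the difference was −0.66 log2 units (adjusted P = 0.8687).

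The 28S rRNA probes (RNA28SN5) showed a smaller and overlapping difference. The first had 7.96, 6.07 and 9.06 with ZNF658 siRNA 1, against 8.31, 9.72 and 10.81 with control siRNA 1 (−1.92 log2 units, SE 0.64, limma adjusted P = 0.284). The second had 7.12, 6.75 and 7.85 with ZNF658 siRNA 1, against 7.67, 8.21 and 9.21 with control siRNA 1 (−1.13 log2 units, SE 0.34). For both 28S probes, replicate 3 of ZNF658 siRNA 1 lay above replicate 1 of control siRNA 1.

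**Figure D3:**
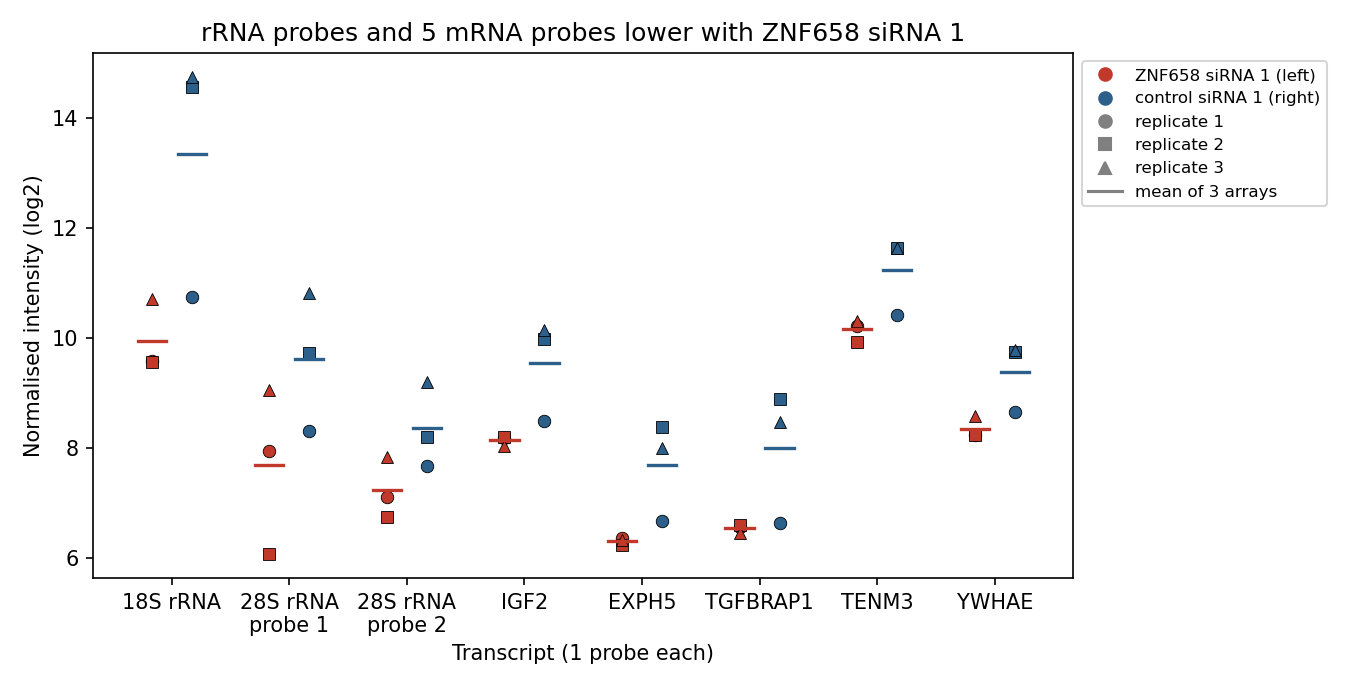
Normalised intensity (y axis, log2) of the 18S and 28S rRNA probes and of 5 mRNA probes (x axis) on the 3 ZNF658 siRNA 1 arrays (red, left of each pair) and the 3 control siRNA 1 arrays (blue, right); marker shapes are replicate numbers and lines are means of 3 arrays. Replicate 1 of control siRNA 1 lies near the ZNF658 siRNA 1 arrays in every column, 0.04 above the nearest for 18S rRNA, while replicates 2 and 3 of control siRNA 1 are higher.

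Some factors that make rRNA were separated in the other direction. Of 18 measured genes of RNA polymerase I and its factors, 5 were separated in the higher direction (27.8%, against 5.9% of all genes). In the lower direction 0 were (against 5.68%), and the median was 0.068. Without both arrays of the close pair, 5 (27.8%) were separated higher and 2 (11.1%) lower, where 18% and 21% of all genes were. TAF1D, a subunit of the SL1 factor that recruits polymerase I, had 9.40, 9.45 and 8.64 with ZNF658 siRNA 1, against 8.43, 8.04 and 7.98 with control siRNA 1 (1.02 log2 units, SE 0.21, limma adjusted P = 0.2524). Without replicate 3 of ZNF658 siRNA 1 the difference was 1.28 (adjusted P = 0.00468). RRN3, the initiation factor TIF-IA, had 8.58, 8.49 and 8.53 with ZNF658 siRNA 1 and 8.06, 8.25 and 7.96 with control siRNA 1. Against control siRNA 2, TAF1D differed by 0.65 and RRN3 by 0.15. The others were POLR1F, POLR2K and POLR2L, and the last 2 are also subunits of other RNA polymerases. Of 64 ribosome biogenesis genes, 3 were separated in each direction (4.69%), and FTSJ3, a methyltransferase of rRNA processing, had 7.54, 7.62 and 7.35 with ZNF658 siRNA 1 and 8.13, 8.12 and 7.95 with control siRNA 1.

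Transcripts that host small nucleolar RNAs, guides of rRNA modification released from introns, were above the control mean in 15 of 21 measured genes. Of the 21, 5 were separated in the higher direction (23.8%, against 5.9% of all genes). In the lower direction 1, SNHG7, was (4.76%, against 5.68%), and the median was 0.197 log2 units. ZFAS1 had 12.90, 12.94 and 12.57 with ZNF658 siRNA 1, against 12.45, 12.37 and 12.04 with control siRNA 1. SNHG8 had 11.09, 11.29 and 11.15 with ZNF658 siRNA 1 and 10.86, 10.84 and 10.64 with control siRNA 1. Neither passed (adjusted P = 0.2524 for ZFAS1 and 0.2776 for SNHG8), and against control siRNA 2 the differences were −0.28 for ZFAS1 and −0.062 for SNHG8.

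The mRNAs of ribosomal proteins differed little. Of 47 genes of the large subunit, 27 were above and 20 below, 3 were separated in the higher direction (6.38%, against 5.9% of all genes) and 0 in the lower, with a median of 0.047 log2 units. Of 27 genes of the small subunit, 14 were above and 13 below and 1 was separated (3.7%), with a median of 0.02. The separated members were RPL36, RPL32, RPL38 and RPS18, at differences of 0.27 to 0.39. RPS18, which lies in the head of the small subunit, had 13.85, 13.98 and 13.75 with ZNF658 siRNA 1 and 13.64, 13.40 and 13.38 with control siRNA 1 (limma adjusted P = 0.2776). Probes of RPL32 differed in sign among themselves. Without both arrays of the close pair, 15 of the 47 large subunit genes (31.9%) and 4 of the 27 small subunit genes (14.8%) were separated in the higher direction, where 18% of all genes were. Of 80 mitochondrial ribosomal protein genes 6 were separated, all higher (7.5%), and of 70 oxidative phosphorylation genes 4 were (5.71%), among them COX7B of cytochrome oxidase at 0.68 log2 units.

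Several mRNAs had the array pattern of 18S rRNA. IGF2, a fetal growth factor, had 8.19, 8.20 and 8.03 with ZNF658 siRNA 1, against 8.49, 9.98 and 10.15 with control siRNA 1 (−1.40 log2 units, SE 0.32, limma adjusted P = 0.2524), and its second probe differed by −1.50. EXPH5, an effector of RAB27B in vesicle transport, had 6.38, 6.24 and 6.34 with ZNF658 siRNA 1, against 6.68, 8.38 and 8.01 with control siRNA 1. TGFBRAP1, which binds TGF-β receptors, had 6.58, 6.60 and 6.45 with ZNF658 siRNA 1, against 6.64, 8.89 and 8.48 with control siRNA 1. In these 3 genes replicate 1 of control siRNA 1 was 0.036 (TGFBRAP1) to 0.31 (EXPH5) log2 units above the nearest ZNF658 siRNA 1 array, and replicates 2 and 3 of control siRNA 1 were higher than it by over 1 log2 unit. Without replicate 1 of control siRNA 1 they passed, at −1.93 for IGF2 (adjusted P = 6.761e-05), −1.88 for EXPH5 (0.0004884) and −2.14 for TGFBRAP1 (0.0001517). Against control siRNA 2 the differences were −0.37 for IGF2, −0.095 for EXPH5 and −0.23 for TGFBRAP1.

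TENM3, a teneurin adhesion protein, had 10.22, 9.93 and 10.32 with ZNF658 siRNA 1, against 10.42, 11.64 and 11.64 with control siRNA 1 (−1.08 log2 units, SE 0.26). YWHAE, a 14-3-3 protein, had 8.24, 8.24 and 8.58 with ZNF658 siRNA 1, against 8.65, 9.74 and 9.78 with control siRNA 1. PDGFA, a growth factor chain, had 7.19, 6.90 and 6.65 with ZNF658 siRNA 1, against 7.21, 7.99 and 8.13 with control siRNA 1. TENM3, YWHAE and PDGFA passed without replicate 1 of control siRNA 1 (adjusted P = 0.0004884, 0.001222 and 0.02547), and against control siRNA 2 they differed by −0.004, −0.87 and −0.44. Each of the 3 repeats the position of replicate 1 of control siRNA 1 next to the ZNF658 siRNA 1 arrays. BSG, the glycoprotein basigin, had 9.57, 9.35 and 10.04 with ZNF658 siRNA 1 and 10.07, 10.67 and 10.71 with control siRNA 1, where replicate 3 of ZNF658 siRNA 1 and replicate 1 of control siRNA 1 were the adjoining arrays.

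In other mRNAs all 3 control arrays also lay above all 3 ZNF658 siRNA 1 arrays, with adjoining arrays 0.23 (LLGL2) to 0.59 (HOXB6) log2 units apart. HOXB6, a homeobox transcription factor, had 5.76, 5.15 and 5.34 with ZNF658 siRNA 1, where it was not detected, against 6.42, 6.36 and 6.70 with control siRNA 1. It was at least 1.62-fold lower (limma adjusted P = 0.2524), but against control siRNA 2 its difference was 0.15. ENTPD4, a Golgi nucleotide phosphatase, had 6.62, 6.81 and 6.86 with ZNF658 siRNA 1 and 7.36, 7.57 and 7.83 with control siRNA 1, and against control siRNA 2 it differed by −0.14. LLGL2, a cell polarity protein, had 6.28, 5.85 and 6.50 with ZNF658 siRNA 1 and 7.08, 6.73 and 7.24 with control siRNA 1, and its difference was −0.81 log2 units and −0.91 against control siRNA 2. IGSF11, an adhesion protein undetected with ZNF658 siRNA 1, was at least 1.32-fold lower. KIAA1958 and MLLT1, a subunit of the super elongation complex, differed by −0.93 and −0.86, and KIAA1958 by −0.47 against control siRNA 2. In both, replicate 1 of control siRNA 1 (6.99 and 6.69) was nearer to a ZNF658 siRNA 1 array than to another control array. Without that control array KIAA1958 passed (limma adjusted P = 0.02824). None of these genes passed the limma test on all 6 arrays.

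The study tested SLC30A5, SLC30A10 and CBWD as zinc-responsive targets of ZNF658, and cells here had no label of zinc treatment. Other zinc genes described below were not shown there to be targets. Of 24 zinc transporter genes, 14 were measured, 10 above and 4 below the control mean, with 2 separated in the higher direction (14.3%, against 5.9% of all genes), 0 in the lower and a median of 0.222 log2 units. SLC39A7 (ZIP7), which releases zinc from the endoplasmic reticulum, had 7.71, 7.58 and 7.26 with ZNF658 siRNA 1, against 6.81, 7.10 and 6.81 with control siRNA 1 (0.61 log2 units, SE 0.18, limma adjusted P = 0.2665). SLC30A7 (ZnT7), which loads zinc into the secretory pathway, had 9.05, 9.04 and 8.98 with ZNF658 siRNA 1 and 8.74, 8.73 and 8.46 with control siRNA 1. SLC30A5 (ZnT5), which carries a ZTRE, had 9.35, 9.51 and 9.55 with ZNF658 siRNA 1 and 9.39, 9.04 and 9.28 with control siRNA 1, so that the groups overlapped, and its probes differed in sign (0.23 log2 units, limma adjusted P = 0.4938). SLC30A10 was not among the probes tested.

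Of 18 genes of the metallothionein, MTF1 and CBWD list, 9 were measured, 8 above and 1 below, and none was separated (0%). The CBWD genes now named ZNG1A and ZNG1E, zinc chaperones, had differences of 0.44 and 0.17 log2 units, and near-identical copies of this family may share a probe. MT2A, a zinc-binding metallothionein induced by zinc, had 10.64, 10.44 and 10.74 with ZNF658 siRNA 1 and 10.73, 10.56 and 9.86 with control siRNA 1. The ZTRE, searched on both strands with 0 to 50 bases between its sides, had a match in the promoter window of 36.5% of tested genes with a window, 33.7% of the genes separated in the higher direction and 41.7% of those separated in the lower direction. Among zinc transporters 4 of 13 windows (30.8%) held a match. GAPDH, a common reference transcript, differed by −0.24 log2 units at its brightest probe, and its 3 probes differed in sign.

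Of 25 keratin and junction genes, 6 were above and 19 below the control mean (76%, against 4665 of 8947 genes or 52.1% over all) with a median of −0.198 log2 units, and 2 were separated in the lower direction (8%, against 5.68% of all genes) and 0 in the higher. DSP, the desmosomal plaque protein desmoplakin, had 10.12, 9.90 and 9.92 with ZNF658 siRNA 1, against 10.19, 10.68 and 10.78 with control siRNA 1. DSC2, a desmosomal cadherin, had 9.48, 9.51 and 10.00 with ZNF658 siRNA 1 and 10.03, 10.18 and 10.06 with control siRNA 1. The adjoining arrays of the groups were 0.071 apart for DSP and 0.03 for DSC2, and DSC2 differed by 0.15 in the other direction against control siRNA 2. Of 11 squamous epithelial genes, 3 (DSC3, SPRR3 and EXPH5) were separated in the lower direction (27.3%, against 5.68% of all genes) and 0 in the higher. Of 8 measured enterocyte genes, 5 were above and 3 below, with 1 separated in the higher direction (12.5%, against 5.9% of all genes) and 0 in the lower. That gene was DPP4, a brush border peptidase, at 8.27, 8.55 and 8.03 with ZNF658 siRNA 1, against 7.94, 7.68 and 7.57 with control siRNA 1.

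Of 24 trophoblast genes, 7 were above and 17 below (median −0.147 log2 units). In the higher direction 0 were separated, and in the lower 5 (20.8%, against 5.68% of all genes). They are 3 genes of the chorionic gonadotropin β subunit (CGB5, CGB8 and CGB7), CYP11A1, the first enzyme of steroid synthesis, and the transcription factor HAND1. CGB5 had 10.82, 10.69 and 10.92 with ZNF658 siRNA 1, against 11.02, 11.62 and 11.57 with control siRNA 1 (−0.60 log2 units, SE 0.16, limma adjusted P = 0.2524). CGB7 had 6.45, 6.55 and 6.68 with ZNF658 siRNA 1, against 7.16, 7.34 and 7.19 with control siRNA 1. These near-identical genes may share probes, and their direction was not the same against control siRNA 2, of another supplier. There the differences were 2.76 for CGB5, 2.46 for CGB8 and 1.79 for CGB7. The Wnt target list had 3 of 13 genes separated in the lower direction (23.1%, against 5.68% of all genes) and 0 in the higher. The 3 are the Wnt antagonists NOTUM, ZNRF3 and DKK1 at −0.59, −0.44 and −0.41. Their adjoining arrays were 0.03, 0.004 and 0.34 log2 units apart. Without both arrays of the close pair, 3 of the 13 (23.1%) were separated lower and 1 (7.69%) higher, where 21% and 18% of all genes were.

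Among metabolic genes, 4 of 28 genes of cholesterol synthesis and uptake were separated in the lower direction (14.3%, against 5.68% of all genes). In the higher direction 1 was (3.57%, against 5.9%), and the median was −0.157 log2 units. The 1 higher gene was CYP51A1, the lanosterol demethylase, at 8.79, 8.52 and 7.93 with ZNF658 siRNA 1 and 7.78, 7.13 and 7.41 with control siRNA 1, and the lower ones included the cholesterol exporter ABCA1 at −0.56. Of 27 glycolysis genes, 7 were above and 20 below, with ALDOA and PGAM1 separated in the lower direction (7.41%) by −0.50 and −0.55. Of 45 cell cycle genes 1 was separated in the higher direction (2.22%) and 2 in the lower (4.44%), shares below those of all genes. Without both arrays of the close pair, 13 of the 28 cholesterol genes (46.4%), 10 of the 27 glycolysis genes (37%) and 16 of the 45 cell cycle genes (35.6%) were separated in the lower direction, where 21% of all genes were.

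**Figure D4:**
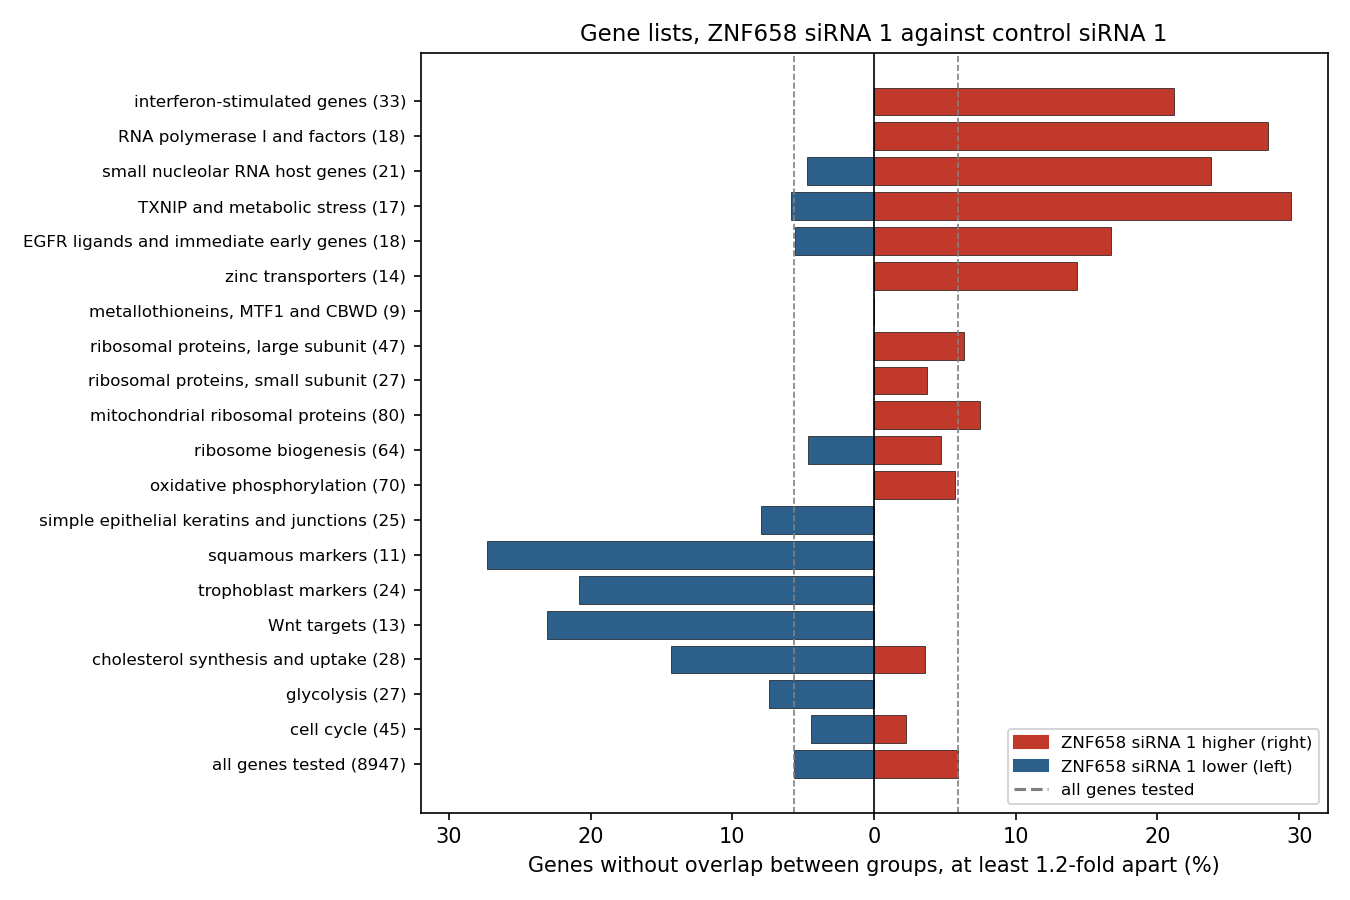
Share of the measured genes of each list (y axis, number measured in brackets) that had no overlap between the groups and a change of at least 1.2-fold (x axis, %), higher with ZNF658 siRNA 1 to the right in red and lower to the left in blue. Dashed lines mark the shares over all 8947 genes, 5.9% higher and 5.68% lower. The lists are small, so that the 3 longest red bars stand for 5 of 17 genes listed with TXNIP, 5 of 18 polymerase I genes and 5 of 21 small nucleolar RNA host genes. Among genes detected on all 6 arrays, 4 of 16 genes listed with TXNIP were separated higher.

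The second siRNA pair on the other 6 arrays allows the same genes to be set side by side, in 1 limma fit over all 12 arrays, with no array in common between the pairs. In earlier results of these data, replicate 3 arrays of that second pair resembled the opposite group of their pair. Its effects may therefore not be those of a clean pair. CCL5 differed by 1.56 log2 units with ZNF658 siRNA 1 and by −0.10 with ZNF658 siRNA 2, each against its own control, and the difference between these effects was 1.66 (SE 0.38, limma adjusted P = 0.2531). The second CCL5 probe differed by 1.47 and −0.42. IFIT2 differed by 2.22 and 0.37 and IFIT1 by 2.09 and 0.30, higher with both siRNAs. Neither passed with ZNF658 siRNA 2 (limma adjusted P = 0.947 for IFIT2 and 0.9793 for IFIT1). The 18S rRNA probe (RNA18SN5) differed by −3.40 with siRNA 1 and by 2.20 with siRNA 2, a difference between effects of −5.59 (SE 1.52, limma adjusted P = 0.2531). IGF2 differed by −1.40 and 1.15 and EXPH5 by −1.38 and 1.25. Against the arrays of control siRNA 2, the differences of IFI6, CYP11A1, IGSF11, MLLT1, ABCA1 and COX7B with ZNF658 siRNA 1 also changed sign. In none of the named genes followed in this fit did the difference between the 2 siRNAs pass the test. Some named genes, among them MT2A, POLR1F and CGA, were not followed in it.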

How the data were processed

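RNA of 12 arrays (Illumina HT12) was labelled by an outside service, ServiceXS, with a kit that amplifies from poly(A) tails, which bears on how rRNA is read. The authors deposited probe intensities averaged over beads, each with its detection p-value, as exported from BeadStudio and not normalised, and a table of log2 values of 21105 probes, which the authors normalised by variance stabilisation (the labels name lumi, version not given in the sources used here). The intensities were used here. With limma 3.58.1 (R 4.3.3, statmod 1.5.0), neqc corrected the background and quantile normalised the 12 arrays at an offset of 16, taking its negative controls from the detection p-values.

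ZNF658 siRNA 1 was compared with control siRNA 1 by limma (lmFit, eBayes with a trend) on their 6 arrays only. In the other siRNA pair, replicate 3 arrays were already known to resemble the opposite group of their pair. A spread pooled with them would thus not be the replicate spread of this pair. Adjusted P values are Benjamini-Hochberg values over all 14295 probes detected at P under 0.01 on all 3 arrays of a group. A call needed an adjusted P value under 0.05 and a 1.2-fold change. The brightest probe stood for a gene, and 962 of 2113 genes with several probes had probes that differed in sign. Names came from the platform's annotation, and 2800 tested probes carried no single name. Where no array of a group detected a probe, the fold is a lower limit: the mean of the detected group against, per array, the higher of the probe's own signal and the lowest detected signal. Through 1 group alone, 431 probes were tested for ZNF658 siRNA 1 and 745 for control siRNA 1. No bead chip position was given, so that chip as a batch was not tested.

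Genes were named by rule: called probes, the 15 largest separated differences each way, rRNA and zinc genes, TXNIP, BCL6, GAPDH and up to 6 members of each of 35 lists, of which the text gives a part. The lists and genes were chosen with earlier results of these data known.

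On simulated data of this design with independent noise, limma called 11%, 46% and 94% of probes changed 1.5-, 2- and 4-fold and 4 of 14095 unchanged probes, while rank product called 3%, 78% and 100% and 27 unchanged probes. Replicate numbers were not used to pair the arrays in the main fit, and the labels do not say whether they mark a pairing. Alternatives were other normalizations, filters, fits and controls, array weights, a replicate block, leaving out each array and the methods' rank product test (50 permutations).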

Additional observations from a re-analysis of the deposited data

How the results depend on the processing

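The counts of 3 probes called higher and 0 lower stayed within 1.5 times under quantile normalization without background correction, the authors' log2 table, an offset of 50, no detection filter, all 12 arrays in 1 fit, all 6 controls, eBayes without trend and no fold minimum. They became 97 higher and 23 lower under median scaling (which moved the median of all probes to 0.186, with an infinite prior that sets aside each probe's own spread), 1 higher with detection on all 6 arrays, 574 and 463 with array weights, 21 and 18 with the replicate block, 131 and 23 against control siRNA 2, and 31 and 30 by rank product. Leaving out 1 array gave 1 to 518 higher and 0 to 297 lower. Leaving out both arrays closest to the other group, a choice made after seeing the data, gave 883 higher and 720 lower, all 3 original calls among them. The cause of these shifts was not tested.

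The 18S rRNA probe passed at −3.15 under median scaling (adjusted P = 2.382e-32), −4.25 with array weights (0.00528), −3.40 with the replicate block (0.005466) and by rank product (−3.40), and −5.08 without both arrays (1.002e-11). Without 1 array it was −4.70 to −2.70. Residuals of arrays of the same number correlated at −0.155, 0.074 and −0.017, which gave no sign of pairing. So few values cannot show whether arrays of the same number shared a culture or batch.

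Of 69 named probes under all alternatives, 1366 values in all, 1146 kept direction and side, 190 passed where they had not, 8 no longer passed and 22 changed sign. Against control siRNA 2 these were IFI6 (0.96), TXNIP (−0.05), BCL6 (−0.37), ZFAS1 (−0.28), SNHG8 (−0.062), HOXB6 (0.15), IGSF11 (0.046), CGB5 (2.76), CGB8 (2.46), CGB7 (1.79), CYP11A1 (0.61), DSC2 (0.15), ABCA1 (0.23), COX7B (−0.083) and MLLT1 (0.60). Against all 6 controls they were IFI6 (0.35), BCL6 (−0.009), CGB5 (1.08), CGB8 (0.95), CGB7 (0.56) and CYP11A1 (0.11), and under median scaling EIF2AK2 (0.095). IFIT1 no longer passed with all 6 controls (adjusted P = 0.2842) or control siRNA 2 (0.06978), nor CCL5 in the 12-array fit (0.1524) or without the trend (0.05934). Probes near background, such as JUN, GBP2 and HOXB6, give only lower limits.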
